A study of Mus musculus with 4 samples.

Results

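Cluster 05 is 1 of 8 groups into which the study's authors had sorted single microglia by their transcripts, and its members were taken as every cell that the deposited cell file assigns to it. It holds 449 of 3023 cells, or 14.9%, and all 4 libraries contribute. Microglia are the resident macrophages of the brain. Cells were sorted as live CD11b+ CD45low cells, 30000 per hemibrain, and the transcripts were tagged at their 3′ ends with unique molecular identifiers (UMIs), so that each UMI counts 1 captured molecule. All animals were male, 12 to 14 months old, and on their diet for 12 weeks. The wild-type control library came from Trem2 +/+ mice on control diet. The wild-type cuprizone library came from Trem2 +/+ mice, the heterozygote library from Trem2 +/- mice and the knockout library from Trem2 -/- mice, all 3 on 0.2% cuprizone, which chelates copper and damages the oligodendrocytes that make myelin. The Trem2 allele is not described in the sources used here. Each group is 1 library of 2 pooled hemibrains, so no difference has a replicate check, and every interval below is a 95% interval for counting error alone.

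Homeostatic microglia are the surveying state of the healthy brain. They carry receptors for nucleotides released by neighbouring cells, such as P2ry12, and sense the factors TGF-beta and CSF1. Immediate early genes, among them Fos, Jun and Egr1, encode transcription factors that cells switch on within minutes of a stimulus, without new protein synthesis. Enzymatic dissociation of tissue is one such stimulus, and microglia are known to respond to it.

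The label of the cluster was checked against the data. All 13 microglia markers were detected in cluster 05, at a summed level of 41026 to 43933 CPM (UMIs of the genes per 1000000 UMIs of the library's cells in the cluster) over the 4 libraries, and the 10 homeostatic markers summed to 13830 to 14487 CPM. P2ry12, the purinergic receptor that steers microglial processes (chr3:59216272-59262871, GRCm38), had 3606, 3712, 3836 and 3676 CPM in the control-diet wild type, the cuprizone wild type, the heterozygote and the knockout, an order kept for every set of 4 values below. Slc2a5, the fructose transporter GLUT5 (chr4:150119283-150144169), had 488, 492, 562 and 464 CPM. Upk1b, a tetraspanin (chr16:38773184-38800328), had 182, 168, 183 and 153 CPM. The 3 genes therefore lay within a narrow band in all libraries, and cluster 05 is called homeostatic microglia-like. They do not set it apart from clusters 01 and 06. P2ry12 was higher in cluster 01 in all 4 libraries, at 4015, 3760, 3907 and 3987 CPM, and in cluster 06, at 4362, 4249, 4477 and 4038 CPM. Slc2a5 and Upk1b were higher in cluster 01 than in cluster 05 in 3 of 4 libraries and in cluster 06 in all 4.

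Markers of other cell types were low. The 12 markers of border-associated macrophages summed to 190 to 258 CPM, those of neurons to 2.84 to 3.93 CPM and those of T or NK cells to 2.62 to 6.69 CPM, with 2 of the 4 T or NK markers at 0. Monocyte markers summed to 8.85 to 41.3 CPM, oligodendrocyte markers to 154 to 188 CPM and astrocyte markers to 114 to 159 CPM. Neutrophil markers lay apart in 1 library, at 2690 UMIs in the heterozygote library against 192, 153 and 172 in the others, and that library is taken up with its comparison.

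The word deeper in the label holds against cluster 06, the cluster with the highest summed level of a list of 20 homeostatic genes, and not against all clusters. The median cell of cluster 05 had 7185 UMIs and 2422 genes, and that of cluster 06 had 3541 UMIs and 1468.5 genes. Clusters 02 and 04 were deeper still, with medians of 16984.5 and 10695 UMIs. Cluster 07 was deeper over all cells, at 8374 UMIs, but not in the cuprizone wild type (6324 UMIs) or the heterozygote (6932 UMIs). Library by library the median of cluster 05 was 1.87 to 2.19 times that of cluster 06. The libraries held 571 to 885 cells and 4747730 to 7849741 UMIs in all. Of the cells, 16 carried a barcode found in more than 1 library, 6 of them in cluster 05.

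Cluster 05 made up 24.2% of cells in the wild-type control library (138 cells, exact binomial interval 20.7 to 27.9%). It made up 13.5% in the wild-type cuprizone library (103 cells, 11.1 to 16.1%), 14.0% in the heterozygote library (112 cells, 11.6 to 16.6%) and 10.8% in the knockout library (96 cells, 8.88 to 13.1%). The control-diet share lay above the others, whose intervals overlapped one another. The sort and the clustering both set these shares, so no change in cell number is read from them.

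The clearest difference of cluster 05 from cluster 06 lay in the immediate early genes. A gene was counted as higher or lower where its CPM differed at least 1.5-fold in the same direction in all 4 libraries, among 5455 genes with at least 100 UMIs over both clusters. By this rule 105 genes were higher in cluster 05 (1.92% of those tested) and 1 was lower (0.0183%). The clusters were built from these same cells, so the contrast describes them and is not a test. The authors' gene file marks 4895 genes as used in the clustering. Of the 105 genes 59 were not among them, beside 3254 of the 5455 tested. Genes left out were still counted in the cells that the clustering grouped, so this share is no check on it. The list of immediate early and dissociation response genes had 22 of 25 members with enough UMIs, and all 22 were higher, 11 of them not used in the clustering. Their median log2 ratio was 1.89, beside 0.01 for all genes tested. The remaining 3 members had 34 against 12 UMIs (Fosl2), 74 against 4 (Dusp2) and 2 against 0 (Egr3) in clusters 05 and 06. These counts are not scaled, and cluster 05 held 3494594 UMIs in all against 1872009 in cluster 06. In the wild-type control library Fosl2 was not higher in cluster 05, at 9.74 CPM against 9.90 CPM in cluster 06. In the cuprizone libraries Fosl2 was higher in cluster 05, with the smallest gap in the wild type (9.17 against 8.34 CPM). Summed over the list, cluster 05 had 36657, 35844, 35539 and 38682 CPM and cluster 06 had 11721, 10110, 11147 and 10933 CPM, which is 3.13, 3.55, 3.19 and 3.54 times as much.

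Among the transcription factors of the list, Egr1 had 785, 617, 654 and 758 CPM in cluster 05 and 135, 104, 70.4 and 94.6 CPM in cluster 06. Fos had 4389, 3695, 3528 and 4079 CPM against 893, 744, 736 and 870 CPM. Atf3, a stress-induced member of the ATF family, had 1001, 941, 878 and 901 CPM against 216, 140, 197 and 101 CPM. For each of these 3 genes the lowest library of cluster 05 was above the highest library of cluster 06, and the median log2 ratios were 2.78, 2.28 and 2.48. Klf4, a Krüppel-like factor, had 189, 74.6, 98.2 and 93.6 CPM against 31.7, 12.5, 19.4 and 23.1 CPM. It was highest in the wild-type control library in both clusters. Fosb, a partner of Jun proteins, had 212, 126, 135 and 116 CPM against 61.4, 31.3, 19.4 and 18.9 CPM, and Ier2, an immediate early nuclear protein, had 1351, 1389, 1282 and 1495 CPM against 253, 188, 175 and 177 CPM. Neither gene's libraries overlapped between the clusters, and Ier2 had the largest median log2 ratio of all 105 genes, 2.88.

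The other 6 of the 12 named genes encode regulators and 1 surface protein. Nfkbia, which holds NF-kappaB in the cytoplasm, had 1565, 1546, 1469 and 1524 CPM in cluster 05 and 263, 357, 270 and 238 CPM in cluster 06. Tnfaip3, the ubiquitin-editing enzyme A20 that damps NF-kappaB signalling, had 130, 118, 115 and 146 CPM against 23.8, 29.2, 26.7 and 29.4 CPM. Nfkbiz, a nuclear IkappaB protein, had 164, 119, 157 and 143 CPM against 43.6, 29.2, 26.7 and 25.2 CPM. All 3 were separated in every library, with median log2 ratios of 2.51, 2.21 and 2.27. Ppp1r15a, the phosphatase subunit GADD34 that restores translation after stress, had 304, 203, 228 and 206 CPM against 87.1, 56.3, 60.7 and 50.5 CPM. Cdkn1a, the cell cycle inhibitor p21, had 91.2, 122, 143 and 99.3 CPM against 25.7, 31.3, 34.0 and 29.4 CPM, and Cd83, a surface protein of activated myeloid cells, had 820, 727, 698 and 680 CPM against 216, 211, 175 and 191 CPM. The last 3 genes differed by 1.88, 1.89 and 1.88 on the median log2 scale.

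**Figure D1:**
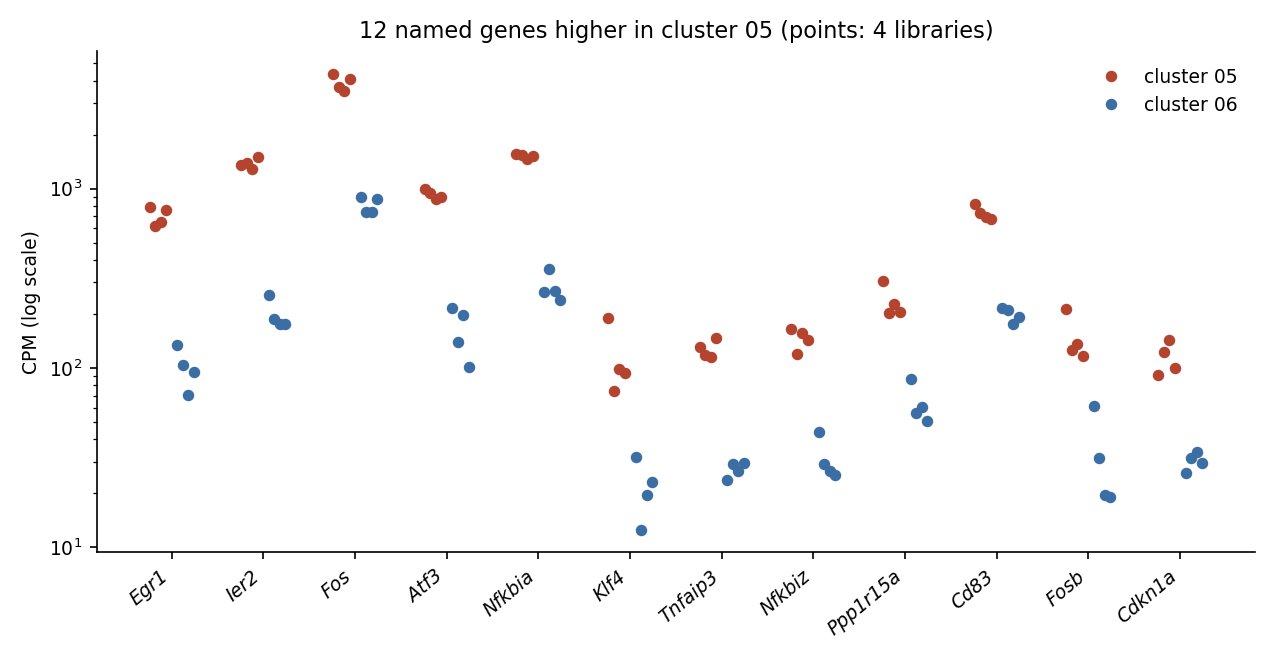
CPM on a log axis of the 12 named genes that were higher in cluster 05, with 1 point per library (from left in the order above) for cluster 05 in red and cluster 06 in blue. For all 12 genes the 4 points of cluster 05 lie above the 4 points of cluster 06, as for Fos at 3528 CPM or more against 893 CPM or less.

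The stretches upstream of 3 of these genes are shown because they hold short sequences known to be read by factors of the stimulus response. Each is the 250 bases before the RefSeq start on GRCm38.p6, in the direction of the gene, and each start coincides with the GENCODE M21 start of the gene. Capitals mark matches, on either strand, to TGACG, the core of the cAMP response element TGACGTCA, and to the kappaB motif. The 3 were chosen after the matches were seen. Fos lies on the plus strand (chr12:85473640-85473889), Nfkbia on the minus strand (chr12:55492648-55492897) and Ppp1r15a on the minus strand (chr7:45526269-45526518).
Fos: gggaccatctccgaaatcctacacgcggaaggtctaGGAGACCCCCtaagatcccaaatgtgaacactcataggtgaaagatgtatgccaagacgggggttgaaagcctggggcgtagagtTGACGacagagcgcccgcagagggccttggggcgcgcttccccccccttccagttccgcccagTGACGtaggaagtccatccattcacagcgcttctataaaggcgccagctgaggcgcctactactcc
Nfkbia: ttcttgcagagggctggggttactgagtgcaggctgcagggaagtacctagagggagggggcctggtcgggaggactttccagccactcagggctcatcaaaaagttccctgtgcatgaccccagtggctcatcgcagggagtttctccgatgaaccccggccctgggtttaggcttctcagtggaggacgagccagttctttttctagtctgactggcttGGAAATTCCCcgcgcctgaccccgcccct
Ppp1r15a: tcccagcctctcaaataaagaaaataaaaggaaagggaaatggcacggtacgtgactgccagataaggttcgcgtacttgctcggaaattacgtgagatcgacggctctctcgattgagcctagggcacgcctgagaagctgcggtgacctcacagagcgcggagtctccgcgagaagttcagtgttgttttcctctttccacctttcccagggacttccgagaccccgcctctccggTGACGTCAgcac
The Fos stretch has 2 TGACG matches and 1 kappaB match, the Nfkbia stretch 1 kappaB match that begins 29 bases before the start, and the Ppp1r15a stretch 1 full TGACGTCA.

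Over all 32851 promoter entries of the same length, 17.8% held TGACG, 1.55% TGACGTCA, 6.75% the AP-1 motif TGANTCA, 3.90% the kappaB motif and 1.47% a CArG box, the site of serum response factor. TGACGTCA contains TGACG. Of the 105 genes, 83 had an entry, and 36 of the 83 held TGACG in at least 1 entry (43.4%, beside 19.8% of all 27025 symbols). The kappaB motif was held by 14 of the 83 (16.9%, beside 4.46%), TGACGTCA by 5 (6.02%, beside 1.77%), TGANTCA by 6 (7.23%, beside 7.82%) and the CArG box by 2 (2.41%, beside 1.62%). The 2 sets are not alike. The 27025 symbols include genes without enough UMIs here, and no share over the tested genes alone was made. The 83 genes had 124 entries, more per symbol than the whole set, which favours a match in at least 1 entry. A match describes letters and not a site in use, and these shares were not tested.

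The difference between the clusters was also present at equal depth. Each cell was thinned at random to 2748 UMIs, the 10th percentile of both clusters, which kept 138, 103, 112 and 95 cells of cluster 05 and 104, 104, 90 and 103 cells of cluster 06. Genes per cell then came to medians of 1266.5, 1257, 1268 and 1249 in cluster 05 and 1243, 1247.5, 1251 and 1206 in cluster 06, where before thinning the same cells had 2448.5, 2384, 2469.5 and 2350 against 1578.5, 1608.5, 1594.5 and 1463. The median cell of cluster 05 kept 102, 97, 94.5 and 105 UMIs of the immediate early list, and that of cluster 06 kept 23, 22, 24.5 and 20. In cluster 05, 88.4, 84.5, 79.5 and 77.9% of cells were above the 90th percentile of cluster 06 in the same library. Most cells of cluster 05 thus exceeded all but the richest cells of cluster 06, and mean list UMIs per cell were 3.30, 3.49, 3.18 and 3.29 times those of cluster 06.

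**Figure D2:**
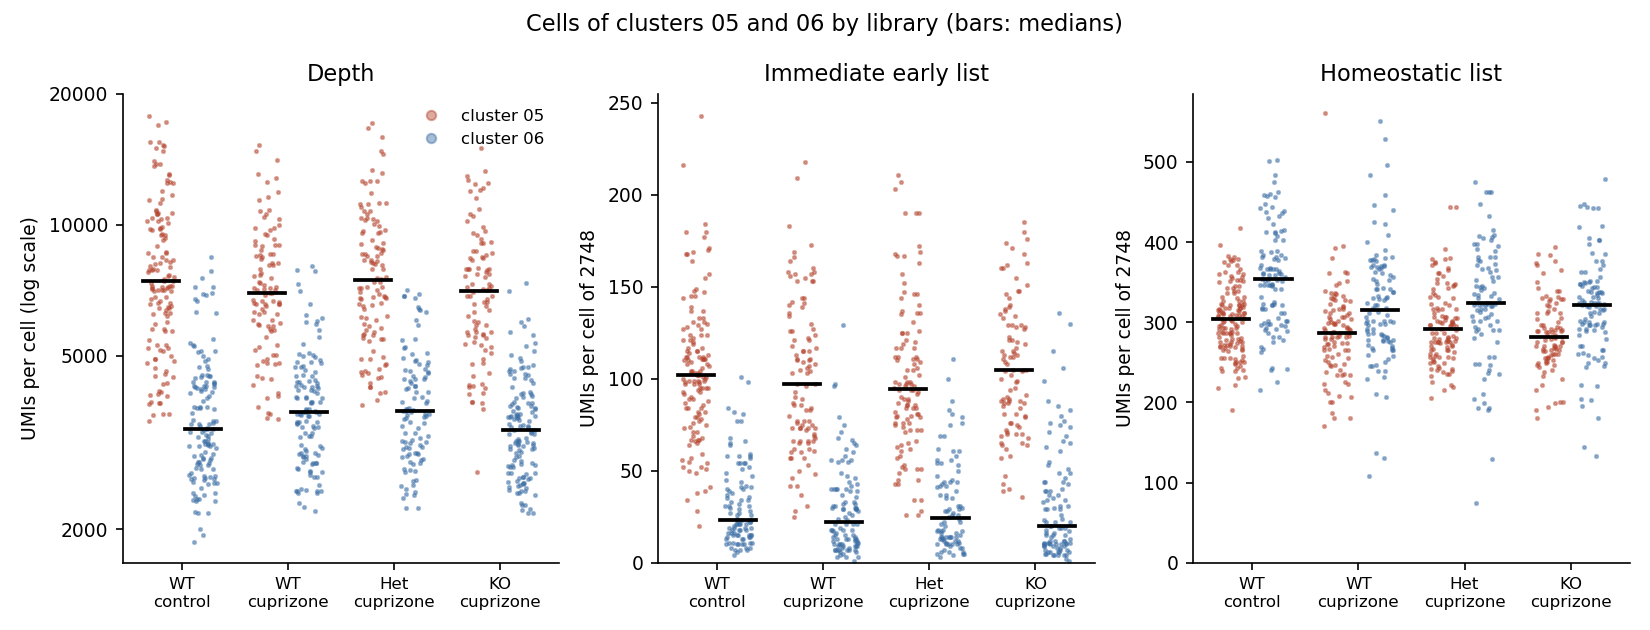
Cells of cluster 05 (red) and cluster 06 (blue) by library, with UMIs per cell on a log axis at left and, for cells thinned to 2748 UMIs, UMIs of the immediate early list in the middle and of the homeostatic list at right. Bars are medians, which at equal depth are 94.5 to 105 against 20 to 24.5 for the immediate early list.

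Unthinned cells of like depth gave the same order. Among cells between the 5th percentile of cluster 05 and the 95th percentile of cluster 06, the immediate early list took 4.24, 3.95, 4.22 and 3.92% of UMIs in cluster 05 (47, 28, 31 and 18 cells) and 1.19, 1.36, 1.05 and 0.907% in cluster 06 (43, 43, 29 and 25 cells). Within cluster 05 the shallower cells were not the poorer ones. Split at the median depth of each library, its shallower cells spent 4.00, 3.64, 3.90 and 4.12% of UMIs on the list and its deeper cells 3.49, 3.55, 3.36 and 3.72%. In cluster 06 the shallower cells spent 1.14, 0.712, 1.13 and 1.01% and the deeper cells 1.19, 1.20, 1.11 and 1.15%. There the deeper cells had the larger share in all libraries but the heterozygote. At equal depth the rule counted 63 genes higher, and within the shared depth range 45, with 21 of the list's genes among them each time.

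In the other lists a minority of members, or none, passed the rule. Of 12 cytokines and chemokines with enough UMIs, 5 were higher and none lower, with a median log2 ratio of 0.97. These were Tnf (2.64), Il1b (2.51), Ccl3 (1.81), Ccl4 (1.70) and Il1a (1.60), all of them products of activated microglia, while Ccl6 was at -0.36. Of 18 transcription factors of microglial identity, 5 were higher, with a median of 0.60. They were Egr1, Klf2 (2.20), Cebpb (1.09), Zfhx3 (0.79) and Cebpa (0.76), of which Egr1 and Klf2 also belong to the immediate early list, while Spi1, the lineage factor PU.1, was at 0.11. Of 9 heat shock chaperones only Dnajb1 passed (1.13), and the median was 0.22.

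None of the 20 homeostatic genes passed the rule in either direction in this comparison, and their median log2 ratio was -0.17. Their summed level was 111183, 104757, 107242 and 104433 CPM in cluster 05 and 130397, 117224, 116872 and 114745 CPM in cluster 06, a ratio of 0.853, 0.894, 0.918 and 0.910. On the sum of these 20 genes cluster 05 was thus below cluster 06 in each library, and the 2 ranges did not overlap. The thinned median of the list was 304.5, 287, 291 and 282 UMIs per cell against 353.5, 315.5, 323.5 and 321. The 10 homeostatic markers lay closer, with summed ratios of 0.906, 0.949, 0.951 and 1.01. Their thinned medians were 39, 39, 39 and 36 UMIs per cell against 41, 39, 42 and 39. Cx3cr1, the fractalkine receptor, was among the 3 of 20 members above 0, at 0.52. Trem2 was at -0.19, with 3138, 2926, 1663 and 376 CPM in cluster 05 and 3703, 3111, 1841 and 507 CPM in cluster 06. Lysosomal genes (27 tested, median -0.19), ribosomal protein genes (80, -0.15) and nuclear-encoded respiratory chain genes (24, -0.21) had no member past the rule.

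The 1 gene lower in cluster 05 was Cox19, an assembly factor for cytochrome c oxidase, with 22.1, 23.6, 20.1 and 15.6 CPM against 37.6, 35.4, 31.6 and 25.2 CPM. The lowest library of cluster 06 was above the highest of cluster 05, on 72 and 61 UMIs in all. With 1 library left out, so that fewer had to pass, the lower count was 4 (without wild-type control), 4 (without wild-type cuprizone), 3 (without the heterozygote) and 9 (without the knockout). The other genes named on this side did not pass. Bola2 had a median log2 ratio of -0.68, Pdha1, a subunit of pyruvate dehydrogenase, -0.67, and Ifi27l2a, an interferon-induced gene, -0.55. Tmem106a (-0.68), Ldah (-0.65), Zfp688 (-0.64), Acyp1 (-0.59), Sae1 (-0.55), Hsd17b12 (-0.52) and Ggh (-0.47) were the others.

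Set among all 8 clusters, cluster 05 did not have the highest immediate early level. Cluster 01, whose median cell had 3387 UMIs, reached 51570 to 57136 CPM, above all 4 libraries of cluster 05. Clusters 02 and 07 had 31513 to 33894 and 31336 to 36500 CPM, clusters 04 and 08 had 18853 to 22977 and 22789 to 24989 CPM, and cluster 03 had 6373 to 12705 CPM. Cluster 06 was therefore the lowest of the clusters other than 03 in this list, and the highest of all 8 in the homeostatic list, in every library. Cluster 05 came next to it in the homeostatic list in the 3 cuprizone libraries, and in the wild-type control library cluster 08, with 13 cells, stood at 111528 CPM beside 111183 CPM. In that library P2ry12, Slc2a5 and Upk1b were nonetheless lower in cluster 08, at 2449, 235 and 35.3 CPM beside 3606, 488 and 182 CPM in cluster 05.

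**Figure D3:**
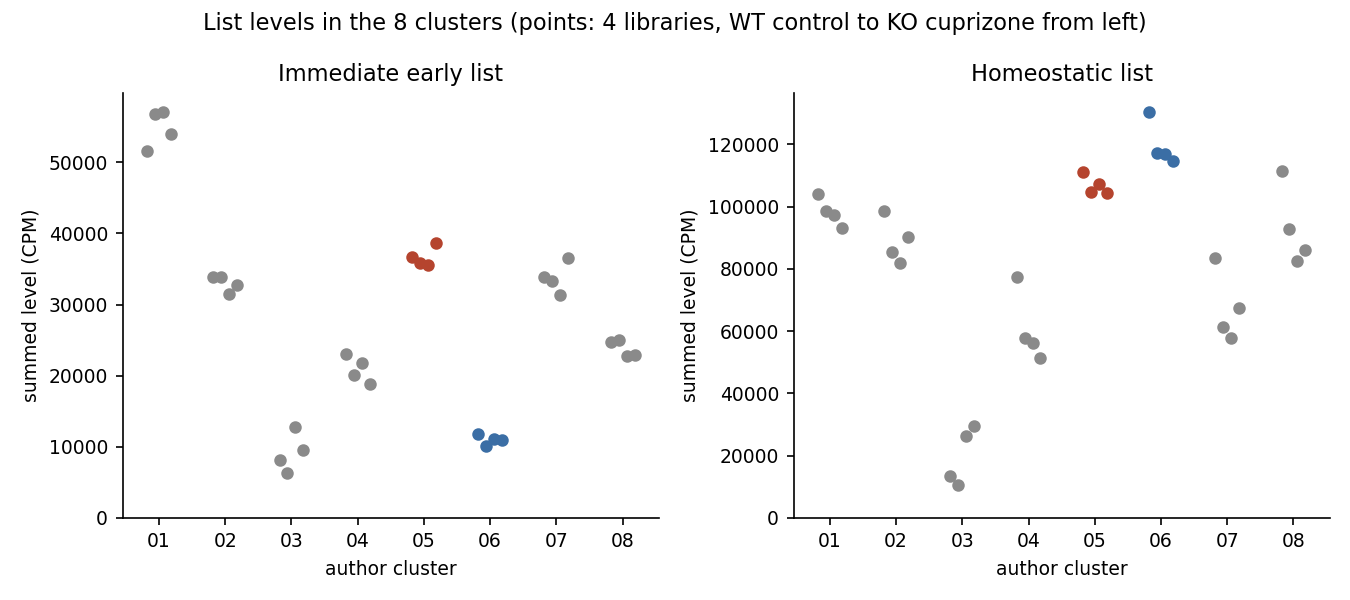
Summed CPM of the immediate early list (left) and the homeostatic list (right) in the 8 author clusters, with 4 points per cluster for the libraries from left in the order above. Cluster 05 (red) lies between cluster 01 and cluster 06 (blue) at left, at 35539 to 38682 CPM.

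Against clusters 01, 02, 04, 06 and 08 pooled, more genes were lower than higher in cluster 05. Of 9064 genes with at least 100 UMIs, 74 were lower (0.816%) and 17 higher (0.188%) by the same rule, with a median log2 ratio of 0.09 over all genes. The pool is not of 1 makeup, since cluster 04 gave it 6, 122, 150 and 13 cells. With TMM scaling, which centres the bulk of genes, 103 genes were lower and 7 higher. Without the wild-type control library the counts were 136 lower and 75 higher. Without the wild-type cuprizone library, the heterozygote or the knockout the higher count was 28, 31 and 32, and the lower count 96, 97 and 106. Fewer libraries had to pass the fold in these counts, so a gene passed more easily.

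The lower genes included many of the disease-associated state of microglia. Spp1, the secreted phosphoprotein osteopontin, had 13.3, 117, 42.4 and 5.68 CPM in cluster 05 and 267, 1547, 1335 and 43.9 CPM in the pool. Lgals3, a lectin of phagocytes, had 3.54, 41.9, 69.2 and 14.2 CPM against 42.7, 316, 358 and 122 CPM. In each library the pool was the higher of the pair, with median log2 ratios of -4.03 and -3.01. Spp1 was also scarce in cluster 01, at 10.2, 47.0, 53.8 and 4.74 CPM, and in cluster 06, at 13.9, 64.6, 129 and 6.31 CPM, while cluster 04 had 3387, 5335, 3728 and 666 CPM. Against cluster 06 alone none of the 4, 9 and 7 members tested of the 3 disease-associated lists passed the rule. The growth factor Igf1 was at -2.84, the chemokine Ccl5 at -3.86, and the fatty acid binding proteins Fabp5 and Fabp3 at -3.06 and -2.38, the last on 2 UMIs in cluster 05.

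By list, 8 of 17 further disease-associated genes were lower, 4 of 10 of the TREM2-dependent stage of disease-associated microglia (Lpl, Itgax, Axl and Csf1) and 2 of 7 of the TREM2-independent stage (Apoe and Lyz2, the latter at -1.19). Of 6 MHC class II genes, 4 were lower, among them H2-Aa at -2.04 and Cd74 at -1.70, and of 18 interferon response genes 4 were lower, among them Irf7 at -1.07. Of 12 border-associated macrophage markers 8 were lower, such as Ms4a7 at -2.65 and Mrc1 at -1.54. Of 16 cytokines and chemokines 5 were lower (Ccl5, Cxcl2, Cxcl10, Csf1 and Il1b), with a median of -0.63, the opposite sign to that against cluster 06. None of these lists had a higher member. No homeostatic gene passed the rule, although 17 of 20 were above 0 and the median was 0.38, with P2ry12 at 0.71, Slc2a5 at 0.70 and Upk1b at 0.70. The immediate early list had 0 of 24 past the rule and a median of 0.23.

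The 17 higher genes were scarce transcripts. Pecam1, an adhesion molecule that also marks endothelium, had 23.9, 19.6, 30.1 and 21.3 CPM in cluster 05 and 13.6, 9.98, 12.4 and 13.3 CPM in the pool, and Jam3, a junctional adhesion molecule, had 26.6, 27.5, 16.7 and 21.3 CPM against 14.4, 14.2, 8.13 and 12.7 CPM. Both were higher than in the pool in each library, on 84 and 81 UMIs. The 6 endothelial markers summed to 102 UMIs in cluster 05, of which Pecam1 made up the most. Thap1 (0.97), Gimap9 (0.91), Gphn (0.86), Ccdc84 (0.85), Aacs (0.82), Mief2 (0.76), Spata2l (0.73), Zfp654 (0.72) and Sinhcaf (0.71) were further named genes, by median log2 ratio, and Zscan21 had 67 UMIs in cluster 05 and 175 in the pool. Not all of these set cluster 05 apart from cluster 06 alone. Jam3 had 25.7, 31.3, 26.7 and 10.5 CPM in cluster 06, above cluster 05 in the cuprizone wild type and the heterozygote. Gphn was higher in cluster 06 in the wild-type control (7.92 against 7.08 CPM) and the heterozygote (9.72 against 8.92 CPM). The other named genes were higher in cluster 05 in every library, some narrowly, as Gimap9 in the heterozygote (12.3 against 12.1 CPM). Against the pool with cells at equal depth 6 genes were higher, the minimum being applied to the thinned counts.

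Cuprizone was compared with control diet in wild-type cells of cluster 05. A gene was counted where its ratio was at least 2, its counting interval did not hold 1 and both libraries had at least 50 UMIs together. Of 4479 genes 8 were higher (0.179%) and 31 lower (0.692%), 9 of the latter being gene models or pseudogenes. Apoe, the main lipid carrier of the brain (chr7:19696109-19699188), had 2445 CPM on control diet and 5941 CPM on cuprizone, a ratio of 2.43 (2.32 to 2.55). Spp1 had 13.3 and 117 CPM, a ratio of 8.78 (5.04 to 16.3), but 1 cell held 49.4% of its 89 UMIs on cuprizone, and with the richest cell of both libraries removed the ratio was 5.12. Lpl, lipoprotein lipase, had 21.2 and 72.0 CPM, a ratio of 3.39 (2.06 to 5.73), and 2.39 without the top cells. All 3 were likewise higher on cuprizone in cluster 06, with ratios of 1.90, 4.66 and 4.96.

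The other higher genes that were named were Glg1 (2.88, 1.61 to 5.30), Hgsnat, a lysosomal acetyltransferase (2.14, 1.27 to 3.63), and Stmn1, a microtubule regulator (2.08, 1.39 to 3.14), while Hmgb2, a chromatin protein, had 1.60. Klf4 was 2.53-fold lower on cuprizone, with 189 and 74.6 CPM on control diet and cuprizone. The chemokine Ccl2 was 2.64-fold lower, with 107 and 40.6 CPM, and 1 cell held 58.1% of its UMIs on cuprizone. Mthfd2 and Pgap2 were 3.07-fold and 3.08-fold lower, and Spry1 and Dusp7, inhibitors of growth factor signalling, 2.45-fold and 2.30-fold. Klf2 (2356 and 1342 CPM) and Ccl3 (2160 and 1455 CPM) were 1.76-fold and 1.48-fold lower and did not pass.

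For lists the fold was 1.5, which 73 genes passed upward (1.63%) and 108 downward (2.41%). In the immediate early list 5 of 22 members were lower on cuprizone (Klf4, Klf2, Nr4a1, Fosb and Klf6) and none higher, with a median log2 ratio of -0.12, and its summed level was 0.978 times that of the control diet. In cluster 06 the list's median was -0.25, over 18 members. There Klf4 had 31.7 CPM on control diet and 12.5 on cuprizone, Klf2 826 and 321, Nr4a1 89.1 and 39.6, and Fosb 61.4 and 31.3. Klf6, at 230 and 231 CPM, was not lower there. Of 20 homeostatic genes only Crybb1 passed, at -0.60, and the median was -0.02. Of 8 genes of the TREM2-dependent stage 2 were higher (Lpl and Cst7), and of 7 of the TREM2-independent stage 1 (Apoe).

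**Figure D4:**
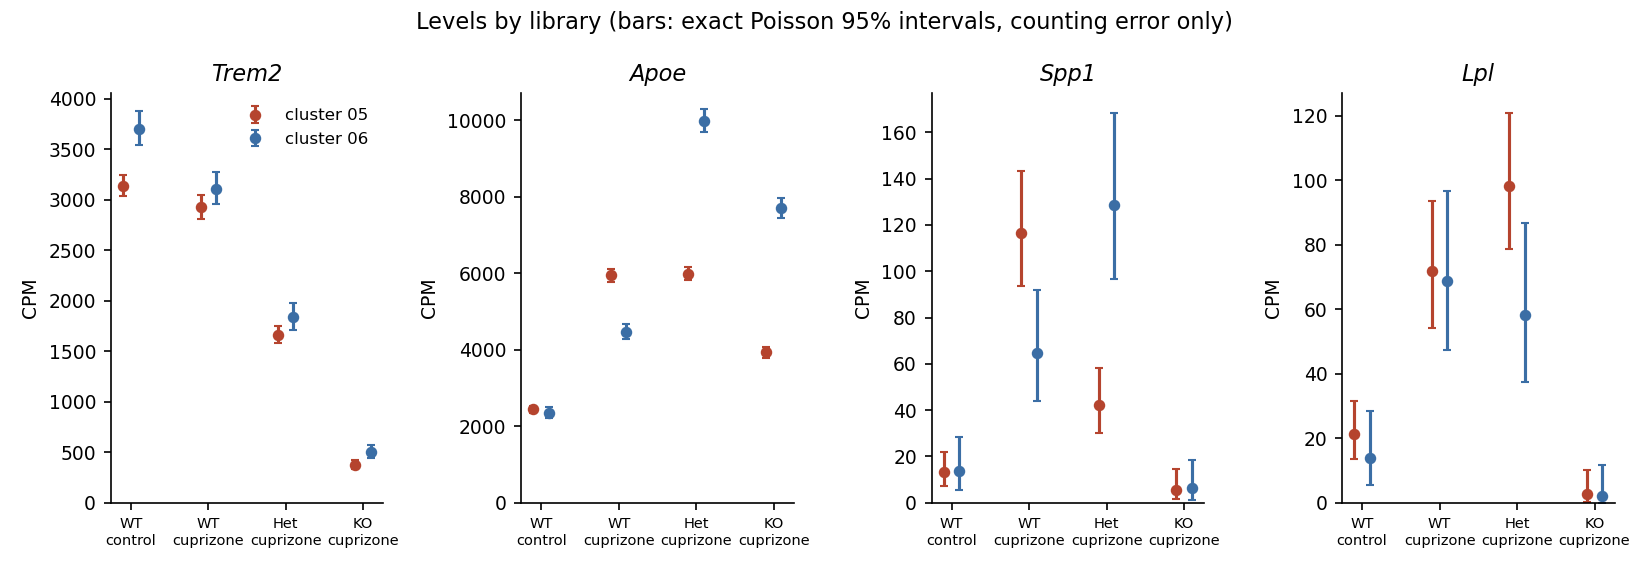
CPM of Trem2, Apoe, Spp1 and Lpl in each library for cluster 05 (red) and cluster 06 (blue), with exact Poisson 95% intervals for counting error as bars. Trem2 is highest in the control-diet wild type (3138 CPM) and lowest in the knockout (376 CPM) in cluster 05, and Apoe in the knockout library is lower in cluster 05 (3931 CPM) than in cluster 06 (7698 CPM).

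The knockout and the wild type on cuprizone differed first in the targeted gene. Trem2 (chr17:48346401-48354147) had 3138 and 2926 CPM in the 2 wild-type libraries, 1663 CPM in the heterozygote and 376 CPM in the knockout, which follows the labels. It was 7.78-fold lower in the knockout than in the wild type on cuprizone and 1.76-fold lower in the heterozygote. The kit reads 3′ ends, and the deleted part of the gene is not given in the sources used here, so the level left in the knockout says nothing of the protein. Of 3750 genes 13 were higher in the knockout (0.347%) and 13 lower (0.347%). Spp1 had 117 CPM in the wild type and 5.68 CPM in the knockout, 20.5-fold lower, or 13.9-fold without the top cells. Lpl had 72.0 CPM and 2.84 CPM, the latter on 2 UMIs, a ratio of 0.0394 (0.00466 to 0.149). Cluster 06 had ratios of 0.0976 for Spp1 and 0.0306 for Lpl.

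Further lower genes were Stmn1 (2.60-fold), March5 (2.55-fold), the cytokine Il1b (2.27-fold) and the chaperone Hspa1a (2.01-fold). In cluster 06 Stmn1 had 95.9 CPM in the wild type and 103 CPM in the knockout, and March5 had 41.7 and 48.3 CPM. Neither was lower there, while Il1b (37.5 and 6.31 CPM) and Hspa1a (144 and 71.5 CPM) were. In cluster 05 Apoe had 5941 and 3931 CPM, a ratio of 0.662 (0.631 to 0.694), and did not pass. Higher in the knockout were Zfp697 (ratio 4.24, 2.15 to 9.11), Plaur, the urokinase receptor (2.96, 1.60 to 5.76), Tnrc6c (2.41, 1.35 to 4.46) and Kcnk12 (2.21, 1.32 to 3.82). Cirbp (1.89), Tsc22d3 (1.68) and Jund (1.43) were above 1 and did not pass. In cluster 06 the ratios of the first 4 were 1.16, 0.584, 1.24 and 0.726.

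At 1.5-fold, 60 genes were higher in the knockout (1.60%) and 111 lower (2.96%). None of 22 immediate early genes passed, with a median log2 ratio of 0.09 and a summed level 1.08 times that of the wild type. Of 20 homeostatic genes Trem2 alone passed, and the summed level was 0.997 times that of the wild type. Of 11 TREM2 signalling partners Trem2 and Nfatc1 were lower. Ttr, the choroid plexus transcript, was lower too, at 96.5 against 185 CPM, and in cluster 06 at 109 against 206 CPM. Its part in other differences was not tested.

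The heterozygote and the wild type on cuprizone differed by 20 genes higher (0.483%) and 4 lower (0.0967%) of 4138. Neutrophil genes led the higher ones. S100a8, an alarmin of neutrophils, had 1144 CPM in the heterozygote and 15.7 CPM in the wild type. Ngp, Camp, Ltf and Lcn2, proteins of neutrophil granules, had 466, 356, 92.6 and 56.9 CPM in the heterozygote and 6.55, 9.17, 1.31 and 0 CPM in the wild type, and S100a9 and Wfdc21 had 574 and 66 UMIs against 13 and 1. A single cell with 11178 UMIs held 2382 of the 2690 neutrophil marker UMIs in the 112 heterozygote cells of cluster 05, or 88.6%, and the next cell held 9. The other cells together held 56 S100a8 UMIs. That cell also had 119 UMIs of homeostatic microglia markers and was not called a doublet. Without it, an alternative chosen after seeing the data, 13 genes were higher and 3 lower.

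Among the remaining genes Mmp12, a macrophage elastase, had 51.3 and 5.24 CPM in the heterozygote and the wild type, and 1 cell held 50% of its heterozygote UMIs. Spp1 was lower, at 42.4 and 117 CPM, a ratio of 0.364 (0.242 to 0.537) that became 0.663 without the top cells. Oat (2.52-fold) and Taok1 (2.41-fold) were lower as well. Tnf, Prpf38b, Plk3 and Cfdp1 were 1.90-fold to 1.91-fold lower and did not pass. At 1.5-fold 79 genes were higher (1.91%) and 52 lower (1.26%). None of 22 immediate early genes passed, and the summed list was 0.991 times the wild type. The wild type on cuprizone serves in all 3 comparisons, so a gene that is high or low there enters each of them, as Spp1 did.

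Cells of cluster 05 also differed among themselves. The Fano factor, the variance of the thinned UMIs per cell divided by their mean, was computed in each library for 1559 genes with a mean of at least 0.2 UMIs, and had a median of 1.02. The 10 highest medians over libraries were those of Actb (19.0), Apoe (16.0), Ccl4 (13.1), Cst3 (9.08), Malat1 (8.61), Klf2 (7.46), Ccl3 (6.75), Fos (5.44), H3f3b and Ftl1 (4.13). The factor was not adjusted for mean level, with which it tends to rise where variation exceeds counting error. Levels differed widely among the 10, with Cst3 at 65124 to 71022 CPM and Ccl3 at 1321 to 2160 CPM. Ccl4, Ccl3, Klf2, Fos and H3f3b were also higher than in cluster 06. For Apoe the factor was 7.04 and 9.96 in the wild-type control and knockout libraries and 38.1 and 22.1 in the wild-type cuprizone and heterozygote libraries. On wild-type cuprizone 1 cell held 10.7% of all Apoe UMIs of the cluster.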

How the data were processed

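Single-cell counts of UMIs per gene were deposited by the authors for 12800 genes and 3023 cells in 4 libraries, with the cluster of each cell and the genes used for clustering. Per the submitters' processing notes, reads were processed with Cell Ranger 2.1.1 on mm10. How cells, genes and doublets had been filtered is not given in the sources used here, and the scarcest gene has UMIs in 8 cells. All deposited cells were used. Scrublet in scanpy 1.11.5 called 22 cells doublets (0.728%), 0 of them in cluster 05.

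UMIs were summed per library and cluster and scaled to CPM over all genes (Python 3.11.15, numpy 2.4.6, pandas 2.3.3). Poisson, binomial and conditional binomial intervals at 95% (scipy 1.17.1) cover counting error only. With 1 library per group no test was made. Cells were thinned at random without replacement to 2748 UMIs, or 3495 as an alternative. edgeR 4.0.16 gave TMM factors for another alternative and no test. The cells, the gene lists (28 of gene groups and 16 of markers) and the rules were chosen with earlier results of these data known.

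Named genes were Trem2, P2ry12, Slc2a5 and Upk1b. Between clusters they were the 12 higher and the 12 lower (6 against the pool) of like direction in all libraries with the library ratio farthest from 1 at its nearest. Between libraries they were the 8 higher and 8 lower by the interval bound nearest 1. List members past the fold and the 10 highest Fano factors were added. Gene models were counted and not named. Starts and ends are from GENCODE M21 and promoters from RefSeq, both on GRCm38. Columns of per-sample values left unused numbered 0. Clec7a was not analysed here, and some genes that the rule names are not reported here.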

Additional observations from a re-analysis of the deposited data

Results flagged for a closer look

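For 2 named genes the libraries differed at least 1.5-fold in opposite directions in clusters 05 and 06, with counting intervals that did not hold 1 and at least 50 UMIs in both clusters. The difference between the clusters was not tested. Ratios without the richest cells were computed for cluster 05 only. Apoe had a log2 ratio of -0.60 for the knockout against the wild type on cuprizone in cluster 05, with 3931 and 5941 CPM. In cluster 06 the knockout was 1.72-fold higher, with 7698 and 4466 CPM. At equal depth the TREM2-independent list, which holds Apoe, was not higher in the median cell of cluster 06. It had 84 UMIs per cell in the knockout and 87 in the wild type, with 90th percentiles of 175.4 and 130.7. How Apoe itself was spread over the cells of cluster 06 was not examined. Without the cell richest in Apoe in both libraries the ratio in cluster 05 was 0.691.

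Spp1 had a log2 ratio of -1.46 for the heterozygote against the wild type on cuprizone in cluster 05, with 42.4 and 117 CPM. In cluster 06 the heterozygote was 1.99-fold higher, with 129 and 64.6 CPM. A single wild-type cell held 49.4% of the Spp1 UMIs of cluster 05, and the ratio without the richest cells was 0.663.

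Other named genes had ratios on opposite sides of 1 without meeting all of these conditions in cluster 06, and some of them are given here. Stmn1 and March5 were lower in the knockout than in the wild type on cuprizone in cluster 05 and slightly higher in cluster 06. On cuprizone against control diet Pgap2 had 0.325 in cluster 05 and 2.20 in cluster 06, the latter on 23 and 11 UMIs. For the knockout against the wild type Plaur had 2.96 and 0.584, and Kcnk12 had 2.21 and 0.726, and both intervals in cluster 06 held 1.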

How the results depend on the processing

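The immediate early list had 19 to 22 genes higher than in cluster 06, with a median of 1.81 to 2.12, under every alternative run. The number of members with enough UMIs was set anew in each run, so 22 was not always the number tested. At a minimum of 20 UMIs, Fosl2 and Dusp2 were tested as well. Of 967 alternative values for 90 named genes, 892 stayed within a set range of the main value, 75 moved outside it and 0 reversed. Between clusters the range was the standard deviation of the log2 ratios over libraries, on either side of their median. Between libraries it was the counting interval. Counts of genes depended on the minimum and the fold, and the cause was not tested. The minimum was applied to the reduced counts at equal depth and in subsets of cells, so fewer genes could be counted there. With 1 library left out, fewer libraries had to pass the fold. Against cluster 06 (105 higher, 1 lower) they were 63 and 2 at equal depth, 47 and 0 at 2-fold, and 45 and 0 in the shared depth range, where the homeostatic median was -0.079. The lower count was 9 at a minimum of 20 UMIs and 0 at 200, with mean per-cell CPM, or without the cells richest in other markers, and 3 to 9 with 1 library left out.

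Against the pool (17 higher, 74 lower) the higher count was 7 with TMM, 43 and 6 at minimums of 20 and 200, and 28 to 75 with 1 library left out, with the lower count then 96 to 136. It was 11 higher and 39 lower with mean per-cell CPM, 6 and 15 at equal depth, and 0 and 33 at 2-fold.

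For cuprizone (8 higher, 31 lower) the counts were 64 and 93 at a minimum of 20, 1 and 6 at 200, 5 and 16 at equal depth and 73 and 108 at 1.5-fold, and 15 higher with mean per-cell CPM. For the knockout (13 and 13) they were 56 and 84, 0 and 2, 6 and 5, and 60 and 111 in that order, with 25 lower by mean per-cell CPM and 21 lower without each gene's richest cell. For the heterozygote (20 and 4) they were 68 and 47 at 20, 4 and 0 at 200, 79 and 52 at 1.5-fold, 8 higher at equal depth, 9 lower with mean per-cell CPM, and 13 higher without the cells richest in other markers or, chosen after seeing the data, without the 1 neutrophil-rich cell.

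Cluster 05 was 28.8% of the control-diet cells of clusters 01, 02, 04, 05, 06 and 08. The equal-depth ratio in the cuprizone wild type was 3.19 at 3495 UMIs. No paired analysis was possible because each group holds 1 library. Depth limits genes near 50 UMIs, where a single cell can set the ratio.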

Other observations

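Of the 105 genes higher in cluster 05 than in cluster 06, 69 belonged to none of the lists. Some of these, chosen after their values were seen, are given here as values. Tsc22d3, a leucine zipper protein induced by glucocorticoids, had 275, 299, 342 and 501 CPM in cluster 05 and 145, 136, 131 and 179 CPM in cluster 06. Sgk1, a kinase induced by serum and glucocorticoids, had 618, 767, 769 and 850 CPM against 321, 396, 464 and 341 CPM, and the clock gene Per1 had a median log2 ratio of 1.40. Nfkbid, another nuclear IkappaB protein, had 199, 151, 163 and 135 CPM against 71.3, 58.4, 89.9 and 44.1 CPM, and Rel, an NF-kappaB subunit, a median log2 ratio of 0.72. H3f3b, a gene of the replacement histone H3.3, had 3806, 4643, 3943 and 4744 CPM against 1638, 1924, 1773 and 2163 CPM. The lowest library of cluster 05 was above the highest of cluster 06 for each of the 4 genes given by library.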
